A study of Mus musculus with 8 samples.

Results

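The nuclear-encoded genes of the respiratory chain were taken as the rows of the deposited expression table whose symbol begins with Nduf followed by a, b, c, s or v and a digit, is one of Sdha to Sdhd, or begins with Uqcr, Cox4 to Cox8 or Atp5. A gene had to reach 1 RPKM (a read density per gene length, adjusted for library size) in at least 2 libraries. This gave 82 genes of the 26202 in the table: 40 of complex I, 4 of complex II, 8 of complex III, 13 of complex IV and 17 of complex V. Another 7 matching rows lay below the filter, namely Cox4i2, Cox6a2, Cox7b2, Cox7c-ps1, Cox8b, Cox8c and Ndufa11b. The rule used symbols and a minimum level, not any difference between groups. Of the 82, 80 were at 1 RPKM or more in all 8 libraries. Cox7a1 was the only one under 1 RPKM in all AdGFP libraries, so it passed the filter through the AdDlx3 libraries alone. Ndufa4 is counted here with complex I by its symbol, although the protein is now assigned to complex IV. The pseudogene Ndufs5-ps and Ndufb4c resemble Ndufs5 and Ndufb4 in sequence, so reads may be split between the copies and their values are uncertain.

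The respiratory chain sits in the inner mitochondrial membrane. Complexes I and II pass electrons from NADH and succinate to ubiquinone, complexes III and IV carry them on through cytochrome c to oxygen, and complex V, the ATP synthase, uses the resulting proton gradient to make ATP. Most subunits are encoded in the nucleus and assembled with a few encoded by mitochondrial DNA. Several complex IV subunits exist as tissue isoforms, with forms typical of heart and skeletal muscle, testis or lung beside the widely expressed ones.

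RNA was sequenced from primary cells grown from the skin epidermis of transgenic newborn mice aged 0 to 1 day, which were transduced 24 h after plating with an adenovirus. The 4 groups had 2 libraries each: Dlx3 knockout cells with AdDlx3 (an adenovirus carrying Dlx3, a homeobox transcription factor of the upper epidermis and hair follicle), wild-type cells with AdDlx3, knockout cells with AdGFP (the control virus, carrying green fluorescent protein) and wild-type cells with AdGFP. All 8 cultures thus carried an adenovirus; the part of Dlx3 removed in the knockout, and whether the cells of 2 libraries came from separate pups, are not stated in the labels. The deposited sample sheet puts replicate 2 of every group in batch B and replicate 1 in batch A, without saying what the batch was.

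The libraries had 73688944 to 124857742 alignments. Dlx3 averaged 489.7 ± 230.4 RPKM in AdDlx3 libraries and 1.18 ± 0.658 RPKM in AdGFP libraries (SD, n = 4 each). Under AdGFP it stood at 0.558 and 0.656 RPKM in knockout cells and at 1.77 and 1.71 RPKM in wild-type cells (batch B, then A, as throughout). The 8 keratinocyte markers Krt5, Krt14, Krt15, Trp63, Col17a1, Itgb4, Itga6 and Dsg3 summed to 1151 and 6824 RPKM in knockout AdDlx3 cells, 882.6 and 8432 RPKM in wild-type AdDlx3 cells, 11290 and 15420 RPKM in knockout AdGFP cells and 14370 and 17270 RPKM in wild-type AdGFP cells. None of the 8 was at 0, but the sum, most of it Krt5 and Krt14, was lower in every AdDlx3 library, most so in batch B. The markers did not move as one: over both genotypes Itga6, an integrin of basal cells, rose by 0.55 ± 0.14 (log2, SE, limma adjusted p = 0.0226), with 97.6 to 140 RPKM in AdDlx3 libraries and 69.9 to 112 RPKM in AdGFP libraries. Its partner Itgb4 fell by 0.87 ± 0.22 (limma adjusted p = 0.0218), Krt15 was at 1.01 to 5.40 RPKM under AdDlx3 and 1.13 to 5.54 RPKM under AdGFP, and the other 6 did not pass. With the batch as a block 1 of the 8 rose and 6 fell. In these bulk samples fewer cells of a type and less RNA per cell cannot be told apart. The 8 fibroblast markers summed to 39.4 to 68.9 RPKM in AdDlx3 libraries and 30.3 to 50.1 RPKM in AdGFP libraries. That sum hides opposite directions: of the 6 that passed the filter 1 rose and 1 fell over both genotypes, against 23.4% and 5.74% of all genes tested. Col1a2 was at 6.65 to 20.4 RPKM under AdDlx3 and 2.38 to 6.47 RPKM under AdGFP, and Col1a1 at 0.995 to 4.79 RPKM and 3.17 to 8.91 RPKM.

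Promoter sequence is shown for the complex IV isoform genes on which the largest changes fall, each beside its widely expressed counterpart, and for Sdhd, whose window held the most of the motifs searched. The sequences are the 250 bases before the annotated start, from RefSeq on build GRCm38.p6, written 5′ to 3′ on the gene's strand. Capitals mark matches to the motifs searched on both strands: NRF1 (GCGCA, any base, then GCGC), GABPA/ETS (CCGGAAG), YY1 (AAGATGGCG), ERRA (TCAAGGTCA), Sp1 (GGGCGG), CRE (TGACGTCA) and a homeobox core (TAATTA). Cox6b2 and Cox6b1 lie on chromosome 7 at chr7:4753095-4753344 and chr7:30626115-30626364, both windows on the minus strand. Cox7a1 lies at chr7:30183921-30184170 on the plus strand, Cox7a2 at chr9:79759854-79760103 and Sdhd at chr9:50603850-50604099, both on the minus strand.
Cox6b2: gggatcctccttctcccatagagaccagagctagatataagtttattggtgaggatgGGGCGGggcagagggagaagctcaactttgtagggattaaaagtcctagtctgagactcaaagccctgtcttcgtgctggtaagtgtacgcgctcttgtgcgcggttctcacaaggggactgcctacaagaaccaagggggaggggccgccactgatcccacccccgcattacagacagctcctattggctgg
Cox6b1: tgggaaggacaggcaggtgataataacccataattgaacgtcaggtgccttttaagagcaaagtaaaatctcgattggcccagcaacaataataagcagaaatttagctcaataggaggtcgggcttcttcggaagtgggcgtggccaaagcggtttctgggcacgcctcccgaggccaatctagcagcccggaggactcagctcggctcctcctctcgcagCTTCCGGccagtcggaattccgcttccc
Cox7a1: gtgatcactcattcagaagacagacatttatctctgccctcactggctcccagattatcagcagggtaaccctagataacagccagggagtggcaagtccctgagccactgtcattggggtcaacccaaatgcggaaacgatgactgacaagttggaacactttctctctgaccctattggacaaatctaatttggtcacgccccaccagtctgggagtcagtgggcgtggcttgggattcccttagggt
Cox7a2: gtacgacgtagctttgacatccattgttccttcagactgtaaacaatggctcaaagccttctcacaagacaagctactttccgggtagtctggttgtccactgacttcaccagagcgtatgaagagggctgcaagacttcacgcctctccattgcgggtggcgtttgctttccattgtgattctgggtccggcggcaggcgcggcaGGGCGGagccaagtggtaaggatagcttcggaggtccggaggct
Sdhd: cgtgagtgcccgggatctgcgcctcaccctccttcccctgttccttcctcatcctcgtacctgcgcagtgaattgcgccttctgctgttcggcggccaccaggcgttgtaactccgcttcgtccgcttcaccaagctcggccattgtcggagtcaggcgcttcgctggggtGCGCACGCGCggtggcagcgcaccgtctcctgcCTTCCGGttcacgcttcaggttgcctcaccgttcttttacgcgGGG
The Cox6b2 window held an Sp1 match at position -193 from the start and the Cox6b1 window a GABPA/ETS match at -28, on the opposite strand. The Cox7a1 window held none of the 7 motifs and that of Cox7a2 an Sp1 match at -44. The Sdhd window held an NRF1 match at -79, a GABPA/ETS match at -46 on the opposite strand, an Sp1 match that runs across the start from -3, and an ERRA match beyond the bases shown, at 37.

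Windows of 300 bases (250 before the start and 50 after) were searched for 62 of the 82 genes. These had exactly 1 promoter in RefSeq and did not lie on 1 chromosome that was left out. That exclusion was not applied to the tested genes, so the 2 sets were built by slightly different rules. NRF1, a factor known for driving nuclear genes of mitochondrial proteins, had its motif in 24.2% of the 62, against 11.4% of 7726 tested genes with 1 promoter. The GABPA/ETS motif occurred in 25.8% against 19.8%, YY1 in 9.68% against 3.70%, ERRA in 3.23% (2 genes, Sdhd and Atp5g3) against 0.207%, and CRE in 6.45% against 3.53%. Sp1 letters were less frequent, in 40.3% of the chain genes against 67.7% of tested genes, and TAATTA was in 0 of the 62 against 2.37%. These shares describe the letters of the windows; CCGGAAG and GGGCGG are short and were not required to be apart from other motifs.

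Chain genes were among the more abundant transcripts. The median over the 82 genes of the mean level was 75.4 RPKM, against 9.98 RPKM over the 12090 genes tested. The mean was at least 10 RPKM for 79 of the 82 and at least 100 RPKM for 26. Atp5b, the catalytic beta subunit of ATP synthase, stood highest, at 694 and 759 RPKM in knockout AdDlx3 cells, 752 and 718 in wild-type AdDlx3 cells, 611 and 567 in knockout AdGFP cells and 600.4 and 586 in wild-type AdGFP cells. All 4 AdDlx3 libraries thus lay above all 4 AdGFP libraries, but the change of 0.31 ± 0.10 (log2, SE) missed the threshold (limma adjusted p = 0.0544; 0.0228 with the batch as a block). The highest of complex I was Ndufa4, of complex III Uqcrc1 and of complex IV Cox6a1.

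The summed level of the 82 genes was 8026 and 11711 RPKM in knockout AdDlx3 cells, 8724 and 10607 RPKM in wild-type AdDlx3 cells, 7431 and 8145 RPKM in knockout AdGFP cells and 7827 and 8338 RPKM in wild-type AdGFP cells. As a share of all RPKM in the library this was 2.29 to 2.80% under AdDlx3 and 2.01 to 2.05% under AdGFP, so the AdDlx3 and AdGFP libraries did not overlap. Complex V made up 0.865 to 1.01% of the RPKM sum in AdDlx3 libraries and 0.733 to 0.760% in AdGFP libraries. Complex IV made up 0.552 to 0.695% and 0.461 to 0.488%. For complex I the shares were 0.591 to 0.755% and 0.538 to 0.589%, for complex III 0.209 to 0.257% and 0.188 to 0.195%, and for complex II 0.0708 to 0.0870% and 0.0607 to 0.0677%, each with AdDlx3 libraries named before AdGFP. A share is tied to the other genes of the library, and the keratinocyte marker sum was lower in the same libraries; its part in the shares was not tested.

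**Figure D1:**
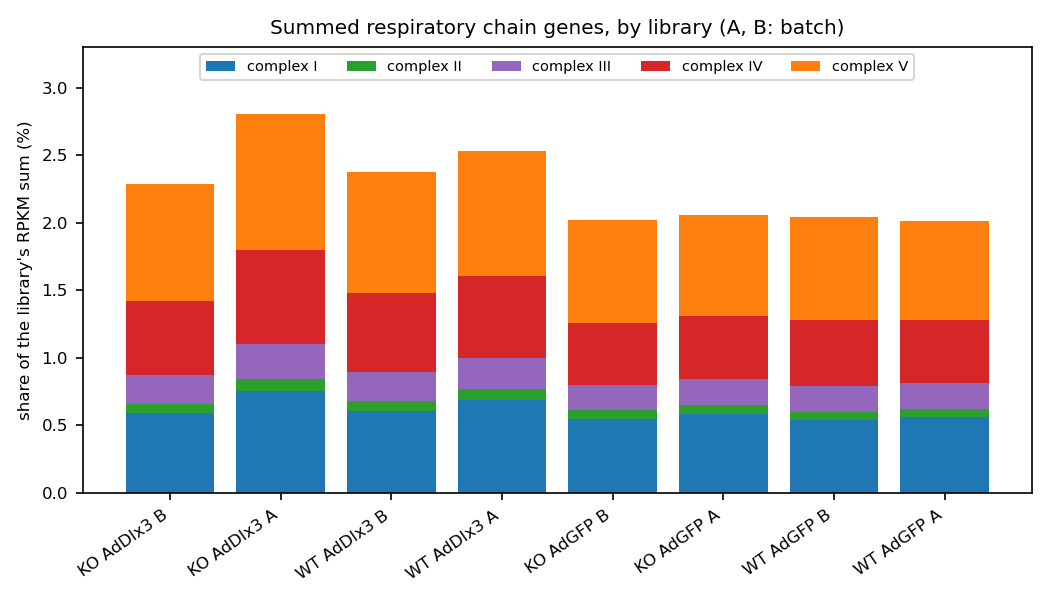
Summed RPKM of the 82 respiratory chain genes as a percentage of each library's RPKM sum, stacked by complex; KO is knockout, WT wild type, and B and A are the batches. The 4 AdDlx3 libraries reach 2.29 to 2.80% and the 4 AdGFP libraries 2.01 to 2.05%.

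Across both genotypes, 2 tissue isoforms of complex IV changed most under AdDlx3. Cox6b2 rose by 2.52 ± 0.28 on the log2(RPKM + 0.5) scale and Cox7a1 by 1.82 ± 0.29 (SE), with limma adjusted p = 0.00109 and 0.00419. Cox7a1 entered the 82 through its AdDlx3 libraries alone, so its rise was in part built into its selection. Of the 82 genes 11 rose, which is 13.4%, and 0 fell, while 23.4% of all 12090 genes tested rose and 5.74% fell. The other 9 called were Ndufa6, Ndufb11, Ndufs4 and Ndufb6 of complex I, Uqcrfs1 of complex III, Cox8a and Cox5a of complex IV, and Atp5o and Atp5a1 of complex V, with changes of 0.34 to 0.59. In this fit the share of chain genes that rose was thus below that of genes in general. It was above the all-gene share with the batch as a block or with equal RPKM sums. With median-of-ratios scaling it was below, as the counts that follow show.

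The direction of most other chain genes depended on the scaling. With the RPKM values as deposited, 77 of 82 changes were positive and their median was 0.28, beside a median of 0.22 over all genes tested; 49 of the 82 lay above that median. With libraries scaled by the median of gene ratios, the median over all genes moved to -0.06 and that of the chain genes to -0.01, 38 of 82 changes were positive, and Cox6b2 and Cox7a1 alone were called, against 9.68% of all genes up and 12.1% down. With the batch as a block, 34 of the 82 rose and 0 fell, against 38.0% and 10.9% of all genes. With equal RPKM sums 24 rose and 0 fell, against 22.4% and 6.34%. With block plus median-of-ratios scaling, 3 rose (Cox6b2, Cox7a1 and Ndufa6) and 3 fell (Ndufb4, Ndufs6 and Uqcrc1), against 17.2% and 22.7%. Leaving out 1 library changed the count of 11 to 14 without the batch B library of knockout AdDlx3 cells, 6 without the batch A one, 4 without either library of wild-type AdDlx3 cells, 3 without the batch B and 4 without the batch A library of knockout AdGFP cells, and 3 and 4 without those of wild-type AdGFP cells. Cox6b2 and Cox7a1 were called in all 8 of these fits, Ndufs4 in 5, Atp5a1 and Ndufa6 in 4, Cox8a in 3, Ndufb11 in 2, Atp5o, Cox5a and Ndufb6 in 1 and Uqcrfs1 in 0. All 4 AdDlx3 libraries lay above all 4 AdGFP libraries for 15 of the 82 genes, against 29.6% of all genes tested, and below them for 0, against 6.27%. Cox7a1, which the AdDlx3 libraries alone brought past the filter, is among the 15.

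**Figure D2:**
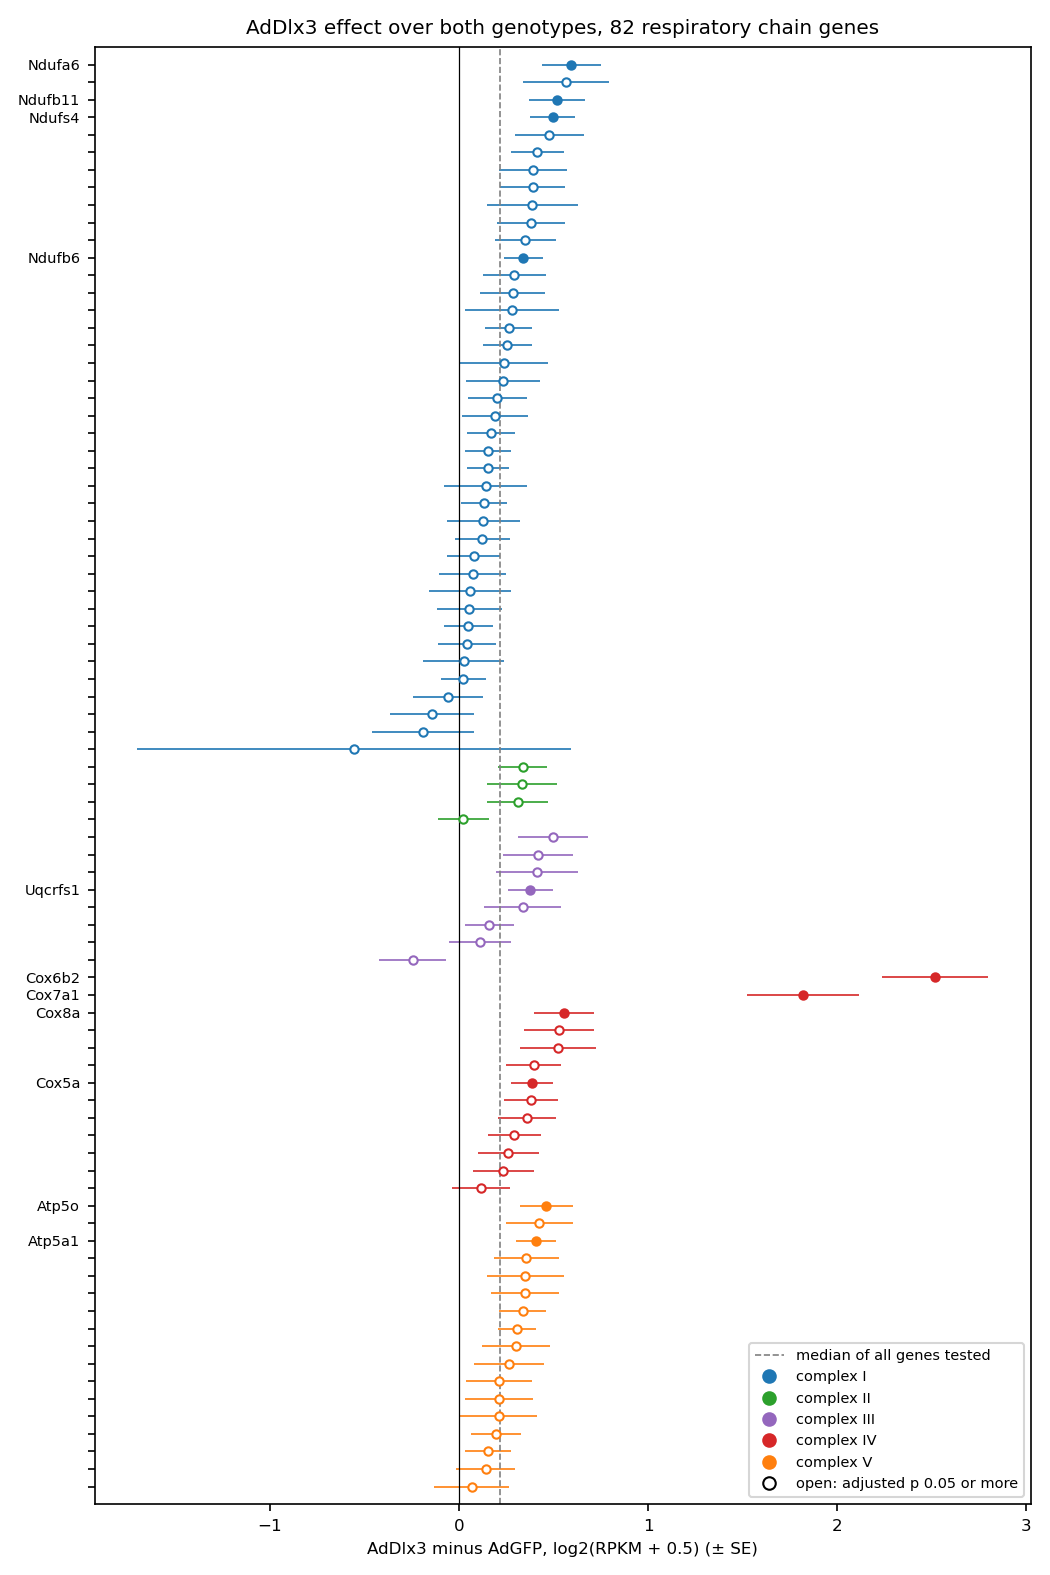
AdDlx3 minus AdGFP over both genotypes for each of the 82 genes, as the change in log2(RPKM + 0.5) with its SE, ordered by complex and then by size, with names given for the 11 genes called; filled points have a limma adjusted p under 0.05 and the dashed line is the median of all genes tested, 0.22. Cox6b2 at 2.52 and Cox7a1 at 1.82 lie apart from the other genes, and 77 of the 82 points lie above 0 (38 after median-of-ratios scaling).

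Cox6b2 encodes the testis isoform of the intermembrane-space subunit VIb of complex IV. It lies at chr7:4751792-4753094 on the minus strand (mm10, GENCODE M21). Its level was 12.3 and 29.3 RPKM in knockout AdDlx3 cells, 19.0 and 14.5 RPKM in wild-type AdDlx3 cells, 1.88 and 3.08 RPKM in knockout AdGFP cells and 3.29 and 2.67 RPKM in wild-type AdGFP cells. Every AdDlx3 library was above every AdGFP library. The rise was called within each genotype, at 2.74 ± 0.41 in knockout cells (limma adjusted p = 0.024) and 2.30 ± 0.41 in wild-type cells (limma adjusted p = 0.0435). It was also called within each batch, at 2.39 ± 0.33 in batch B and 2.65 ± 0.33 in batch A (limma adjusted p = 0.000232 and 0.000269), and, over both genotypes, in all 8 fits that left out a library. In the authors' deposited table its fold change was 7.60 in knockout cells and 5.44 in wild-type cells, with q-values of 0.0769 and 0.106.

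The ubiquitous partner Cox6b1 remained by far the larger transcript. It had 216 and 333 RPKM in knockout AdDlx3 cells, 233 and 279.9 RPKM in wild-type AdDlx3 cells, 198 and 245 RPKM in knockout AdGFP cells and 210.2 and 222 RPKM in wild-type AdGFP cells. Those levels overlapped between the viruses, with a change of 0.26 ± 0.16 (limma adjusted p = 0.245). Cox6b2 made up 5.40 and 8.08% of the pair's summed RPKM in knockout AdDlx3 cells, 7.53 and 4.91% in wild-type AdDlx3 cells, 0.94 and 1.24% in knockout AdGFP cells and 1.54 and 1.19% in wild-type AdGFP cells. This within-library share does not depend on the scaling, and all 4 AdDlx3 values exceeded all 4 AdGFP values.

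Cox7a1 encodes the heart and skeletal muscle isoform of subunit VIIa and lies at chr7:30184144-30186078 on the plus strand. It had 1.56 and 4.30 RPKM in knockout AdDlx3 cells, 1.65 and 2.08 RPKM in wild-type AdDlx3 cells, 0.359 and 0.243 RPKM in knockout AdGFP cells and 0.0766 and 0.458 RPKM in wild-type AdGFP cells. The levels are low but the groups do not overlap. Because the AdDlx3 libraries alone brought Cox7a1 past the filter, this order and the calls that follow are no separate evidence of a rise. By genotype the change was 1.98 ± 0.45 in knockout cells and 1.66 ± 0.45 in wild-type cells, and neither passed (limma adjusted p = 0.0541 and 0.0951), while with the batch as a block both did (limma adjusted p = 0.011 and 0.0203). By batch it was 1.58 ± 0.27 in batch B and 2.06 ± 0.27 in batch A, both called (limma adjusted p = 0.00084 and 0.000344). Because levels are near the constant added before the logarithm, the change over both genotypes was 2.70 with a constant of 0.1 and 1.35 with a constant of 1.

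The other VIIa forms were much more abundant. Cox7a2, the liver-type isoform found in most tissues, averaged 82.8 ± 19.8 RPKM in AdDlx3 libraries and 56.4 ± 6.97 RPKM in AdGFP libraries (SD, n = 4 each). Cox7a2l, which joins complexes III and IV into supercomplexes, averaged 107.0 ± 24.0 and 74.1 ± 16.2 RPKM in the same order. Neither change passed the threshold (0.53 ± 0.18 and 0.52 ± 0.20, limma adjusted p = 0.0634 and 0.0845), but with the batch as a block both did (limma adjusted p = 0.00673 and 0.00335).

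Other muscle isoforms of complex IV stayed under the filter. Cox6a2 was at 0.271 to 0.577 RPKM in AdDlx3 libraries and 0.152 to 0.360 RPKM in AdGFP libraries. Cox8b was at 0 to 0.0421 RPKM in AdDlx3 libraries and 0 to 0.0386 RPKM in AdGFP libraries. Of 9 skeletal muscle markers 3 passed the filter, of which Myh2 rose, Tnni2 fell and Mylpf did not pass the threshold. Myh2, a fast myosin heavy chain, had 9.29 to 40.9 RPKM in AdDlx3 libraries and 0.0128 to 0.0230 RPKM in AdGFP libraries. It thus passed the filter through the AdDlx3 libraries alone. Over the 9 the summed level was 14.4 to 44.1 RPKM in AdDlx3 libraries and 5.03 to 10.1 RPKM in AdGFP libraries, and none of the 9 was at 0 in any library. Most of the sum in each AdDlx3 library was Myh2, which made up hardly any of the sum in AdGFP libraries. Myod1 was at most 0.0706 RPKM and Ckm at most 0.227 RPKM in AdDlx3 libraries, against at most 0.0981 and 0.237 RPKM in AdGFP libraries, and Tnni2 was at 0.366 to 1.54 RPKM in AdDlx3 libraries and 2.37 to 7.90 RPKM in AdGFP libraries. The part of muscle cells in the Cox7a1 values was not tested.

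**Figure D3:**
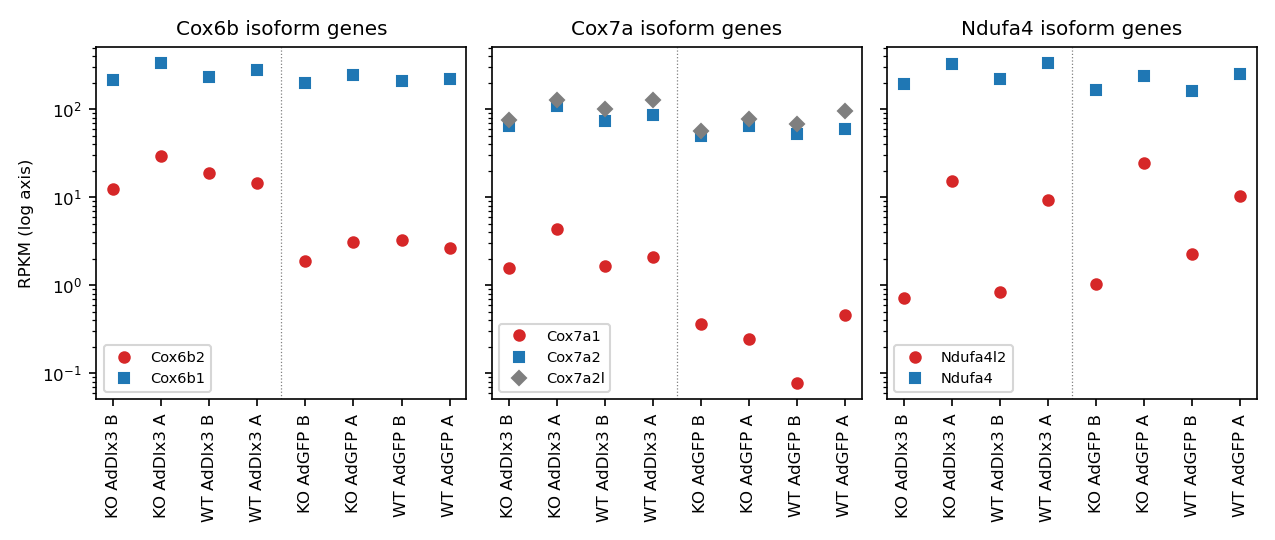
RPKM (log axis) of isoform genes in each library, with KO for knockout, WT for wild type and B and A for the batches; AdDlx3 libraries are left of the dotted line and AdGFP libraries right of it. Cox6b2 and Cox7a1 are higher in all 4 AdDlx3 libraries, Cox6b1 lies between 198 and 333 RPKM throughout, and Ndufa4l2 follows the batch.

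Among the remaining complex IV genes, Cox8a and Cox5a rose. Cox8a, the widely expressed form of the smallest subunit, had 252 and 395 RPKM in knockout AdDlx3 cells, 279.5 and 318 RPKM in wild-type AdDlx3 cells, 188 and 206 RPKM in knockout AdGFP cells and 228 and 214 RPKM in wild-type AdGFP cells. That is a change of 0.56 ± 0.16 (limma adjusted p = 0.0329), with no overlap between the viruses. Cox5a, a matrix-side subunit, had 123 and 141 RPKM in knockout AdDlx3 cells, 125 and 132 RPKM in wild-type AdDlx3 cells, 97.5 and 101 RPKM in knockout AdGFP cells and 89.1 and 111 RPKM in wild-type AdGFP cells (change 0.39 ± 0.11, limma adjusted p = 0.033). A long non-coding RNA gene, Gm26631, overlaps Cox5a on the opposite strand, and the labels do not say whether counting used strand. Cox4i1, the ubiquitous form of the largest nuclear-encoded subunit, averaged 341 ± 49.5 RPKM in AdDlx3 libraries and 261 ± 31.3 RPKM in AdGFP libraries (SD, n = 4 each) and did not pass without the batch as a block (limma adjusted p = 0.0778, and 0.0446 with it). Its lung isoform Cox4i2 was at most 0.0327 RPKM under AdDlx3 and at most 0.0578 RPKM under AdGFP. The smallest changes of the complex were those of Cox7b (0.11 ± 0.15) and Cox6a1 (0.23 ± 0.16). With the block 10 of the 13 rose, against 38.0% of all genes tested. All 13 changes of the complex were positive with the deposited values and 9 of 13 after median-of-ratios scaling.

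In complex I, which feeds electrons from NADH into the chain, 4 of 40 genes rose, against 23.4% of all genes tested. Ndufa6, an accessory subunit that binds the mitochondrial acyl carrier protein, had 56.2 and 85.5 RPKM in knockout AdDlx3 cells, 69.4 and 79.4 RPKM in wild-type AdDlx3 cells, 42.8 and 46.0 RPKM in knockout AdGFP cells and 44.8 and 57.0 RPKM in wild-type AdGFP cells. The change was 0.59 ± 0.16 (limma adjusted p = 0.0246), although 1 AdGFP library was above the lowest AdDlx3 library. Ndufs4, an accessory subunit needed for a stable complex, had 26.1 and 33.9 RPKM in knockout AdDlx3 cells, 30.9 and 29.4 RPKM in wild-type AdDlx3 cells, 20.9 and 23.0 RPKM in knockout AdGFP cells and 19.2 and 21.4 RPKM in wild-type AdGFP cells. Its groups did not overlap, its change was 0.49 ± 0.12 (limma adjusted p = 0.0178), and batch B and batch A gave nearly the same change, 0.49 and 0.50. Ndufb11 and Ndufb6, accessory subunits of the membrane arm, rose by 0.52 ± 0.15 and 0.34 ± 0.10 (limma adjusted p = 0.0322 and 0.0425). Each overlaps a gene on the opposite strand, Rbm10 and Smim27.

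Ndufa8, an accessory subunit of the intermembrane-space side, had one of the smallest changes of complex I, 0.03 ± 0.21, and averaged 78.3 ± 23.8 RPKM in AdDlx3 libraries and 74.5 ± 5.72 RPKM in AdGFP libraries (SD, n = 4 each). Ndufa4, the most abundant gene of the group, had a change of 0.39 ± 0.24 that did not pass (limma adjusted p = 0.25), and with the batch as a block it did (limma adjusted p = 0.00812). The median over the 40 genes was 0.20, just under that of all genes tested. With the block 13 of the 40 rose, against 38.0% of all genes tested.

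All 4 complex II genes are encoded in the nucleus. Without the batch as a block 0 of the 4 passed, and with it 2 did, Sdhb and Sdhc. Of all genes tested 23.4% rose without the block and 38.0% with it. Sdha, the flavoprotein that oxidises succinate, had 53.3 and 71.5 RPKM in knockout AdDlx3 cells, 52.4 and 69.0 RPKM in wild-type AdDlx3 cells, 65.1 and 63.3 RPKM in knockout AdGFP cells and 56.6 and 55.2 RPKM in wild-type AdGFP cells (0.02 ± 0.14, limma adjusted p = 0.909). Its levels overlapped between the viruses. Sdhb, the iron-sulfur subunit, changed by 0.34 ± 0.19 and Sdhc, a membrane anchor, by 0.31 ± 0.16 (limma adjusted p = 0.203 and 0.177, and with the block 0.0351 and 0.0478). Sdhd, the other anchor, had 68.7 and 91.3 RPKM in knockout AdDlx3 cells, 69.7 and 81.2 RPKM in wild-type AdDlx3 cells, 64.4 and 56.3 RPKM in knockout AdGFP cells and 66.4 and 57.6 RPKM in wild-type AdGFP cells. These do not overlap, but the margin in batch B was small and the change of 0.34 ± 0.13 missed the threshold (limma adjusted p = 0.0857, and 0.0539 with the block).

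Of the 8 complex III genes, Uqcrfs1, the Rieske iron-sulfur protein, was the one that rose. It had 64.5 and 78.8 RPKM in knockout AdDlx3 cells, 68.7 and 69.9 RPKM in wild-type AdDlx3 cells, 52.2 and 49.0 RPKM in knockout AdGFP cells and 52.9 and 62.9 RPKM in wild-type AdGFP cells. The change was 0.38 ± 0.12 (limma adjusted p = 0.0446) and was called in 0 of the 8 fits that left out a library. Uqcrc1, a large core subunit, had 110.3 and 174 RPKM in knockout AdDlx3 cells, 114 and 167 RPKM in wild-type AdDlx3 cells, 158 and 152 RPKM in knockout AdGFP cells and 176 and 169.8 RPKM in wild-type AdGFP cells. It was low in the 2 AdDlx3 libraries of batch B only, and over both batches changed by -0.24 ± 0.18 (limma adjusted p = 0.326). The changes of Uqcrc2 and Uqcrq were 0.16 ± 0.13 and 0.11 ± 0.16. With the block 2 of the 8 rose, Uqcrfs1 and Uqcrh, against 38.0% of all genes tested (23.4% without it).

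In complex V, 2 of 17 genes rose, against 23.4% of all genes tested. Atp5a1, the alpha subunit that sits beside beta in the catalytic head, had 349.6 and 420.0 RPKM in knockout AdDlx3 cells, 376 and 372 RPKM in wild-type AdDlx3 cells, 282 and 277 RPKM in knockout AdGFP cells and 299 and 284 RPKM in wild-type AdGFP cells. All AdDlx3 libraries were higher, by 0.41 ± 0.10 (limma adjusted p = 0.0235); Haus1 overlaps it on the opposite strand. Atp5o, the subunit that ties the head to the peripheral stalk, averaged 192 ± 31.8 RPKM in AdDlx3 libraries and 138 ± 9.30 RPKM in AdGFP libraries (SD, n = 4 each), a rise of 0.46 ± 0.14 (limma adjusted p = 0.0408). The 3 genes that encode the same mature membrane-ring subunit, Atp5g1, Atp5g2 and Atp5g3, changed by 0.21 ± 0.17, 0.07 ± 0.20 and 0.14 ± 0.16, none past the threshold. With the block 7 of the 17 rose, against 38.0% of all genes tested. All 17 changes were positive with the deposited values and 9 of 17 after median-of-ratios scaling.

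Within a genotype, Cox6b2 alone was called, 1 of 82 in knockout cells and 1 of 82 in wild-type cells, against 4.43% and 2.27% of all genes up and 0.893% and 0.356% down. That call was lost in knockout cells without the batch A library of knockout AdDlx3 cells or any 1 AdGFP library, and in wild-type cells without any 1 AdGFP library or either library of wild-type AdDlx3 cells. With the batch as a block, 6 rose in knockout cells (Cox6b2, Cox7a1, Cox7a2l, Cox8a, Ndufa6 and Ndufv3) and 4 in wild-type cells (Cox6b2, Cox7a1, Ndufb11 and Ndufs4), against 18.9% and 16.6% of all genes up and 5.67% and 5.41% down. A q-value under 0.05 was given to 0 of the 82 in each of the 4 contrasts of the authors' deposited table.

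The contrasts of genotype gave no call. Under AdDlx3 the Dlx3 transcript averaged 470.3 RPKM in knockout and 509.2 RPKM in wild-type cells (n = 2 each). That contrast, and the mean over both viruses, thus do not measure loss of Dlx3. Under AdGFP it averaged 0.607 and 1.74 RPKM, so wild-type cells had little Dlx3 transcript to lose. Knockout against wild-type cells gave 0 of 82 chain genes past the limma threshold under AdDlx3, under AdGFP and over both viruses, and 0.0% of all genes tested. At an unadjusted p under 0.05 there were 0 chain genes in each, beside 45, 121 and 194 of all genes. Median changes of the chain genes were 0.03 under AdDlx3, -0.03 under AdGFP and -0.01 over both. The test of whether the AdDlx3 effect differed between the genotypes also gave 0 of 82 and 0.0% of all genes, with 0 chain genes and 40 of all genes at an unadjusted p under 0.05. For Cox6b2 the effect in knockout minus wild-type cells was 0.44 ± 0.58 and for Cox7a1 0.31 ± 0.63 (limma adjusted p = 1.0 each). With 2 libraries a group, errors this wide do not show that the genotypes act alike.

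Many chain genes differed between the batches. In batch B against batch A, 54 of the 82 genes were lower over both viruses and 0 were higher, against 27.2% lower and 17.1% higher of all genes tested. The median of the chain genes was -0.31 and that of all genes -0.06, and under median-of-ratios scaling 55 were called lower and 0 higher, against 26.9% and 17.2%. This batch comparison was added after the data were seen. Genotype was a term of its fit, so its error is only how the genotype difference varied across viruses and batches. It thus holds for these 4 pairs of libraries only. Under AdDlx3, 63 of the 82 were lower in batch B (26.8% of all genes), with a median of -0.45. Under AdGFP, 9 were lower (13.0% of all genes), with a median of -0.18, and 6 of the 9 were also among the 63. Leaving out 1 library gave 25 in place of 54 without the batch B library of knockout AdDlx3 cells. In place of 63 it gave 11 without that library, 21 without its batch A partner and 27 without the batch B library of wild-type AdDlx3 cells. In place of 9 it gave 5 and 1 without the batch B and batch A libraries of knockout AdGFP cells, and 4 without either library of wild-type AdGFP cells.

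Ndufa4l2 differed most between the batches. It encodes a relative of Ndufa4 that is known as a target of hypoxia-inducible factor. Its level was 0.704 RPKM in batch B and 15.2 RPKM in batch A for knockout AdDlx3 cells, 0.824 and 9.30 RPKM for wild-type AdDlx3 cells, 1.03 and 24.2 RPKM for knockout AdGFP cells and 2.28 and 10.3 RPKM for wild-type AdGFP cells. Every batch B library lay below every batch A library, by -3.14 ± 0.27 (log2, SE, limma adjusted p = 4.37e-05), while the virus changed it by -0.55 ± 1.15 (limma adjusted p = 0.737). That fit left the batch difference in the error. With the batch as a block the virus change was -0.55 ± 0.29 (limma adjusted p = 0.152). Each AdDlx3 library was below the AdGFP library of its genotype and batch. Shmt2 overlaps Ndufa4l2 on the opposite strand. Ndufa4, its abundant relative, was lower in batch B by -0.62 ± 0.08 (limma adjusted p = 0.000281).

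The median AdDlx3 effect on the chain was higher in batch A. The median change was 0.12 in batch B and 0.47 in batch A for knockout cells, beside 0.18 and 0.25 for all genes, and 0.17 and 0.33 for wild-type cells, beside 0.21 and 0.23. In batch B 15 of the 82 rose and 3 fell (Ndufb4, Ndufb4c and Uqcrc1), against 37.1% and 16.1% of all genes, and in batch A 55 rose and 0 fell, against 36.6% and 8.55%. After median-of-ratios scaling batch B gave 3 up and 18 down, against 21.2% and 28.1%, and batch A 6 up and 0 down, against 14.6% and 18.7%. The 15 became 4 without the batch B library of wild-type AdDlx3 cells and 8 without that of wild-type AdGFP cells. The 55 became 13 without the batch A library of knockout AdDlx3 cells, 19 without that of knockout AdGFP cells and 27 without that of wild-type AdGFP cells. Of the 15 that rose in batch B, 13 also rose in batch A. Of the 11 called over both genotypes and batches, 7 were called in batch B (Cox6b2, Cox7a1, Ndufa6, Ndufb11, Ndufs4, Cox5a and Atp5a1) and 11 in batch A. Across all 4 pairs of AdDlx3 and AdGFP libraries, 44 of the 82 changes (53.7%) were positive in every pair and 1 was negative in every pair (1.22%), against 46.5% and 13.2% of all genes tested. After median-of-ratios scaling 11 were positive and 15 negative in every pair, against 23.5% and 30.9%.

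A test of the difference itself called 7 of 82 genes with a smaller effect in batch B and 0 with a larger one, against 8.56% and 5.43% of all genes. They were Ndufs5 (-0.97 ± 0.20), Atp5g2 (-0.79 ± 0.19), Ndufb4 (-0.75 ± 0.17), Ndufs7 (-0.70 ± 0.19), Uqcrc1 (-0.66 ± 0.16), Ndufa8 (-0.60 ± 0.17) and Atp5g3 (-0.53 ± 0.15), with limma adjusted p of 0.0143 to 0.0468. The 7 became 17 without the batch A library of wild-type AdDlx3 cells and 10 without the batch B library of knockout AdGFP cells, and 0 to 2 without any 1 of the other 6 libraries. Ndufs5, an accessory subunit of complex I, had 31.9 and 57.9 RPKM in knockout AdDlx3 cells, 31.2 and 59.8 RPKM in wild-type AdDlx3 cells, 39.1 and 29.9 RPKM in knockout AdGFP cells and 34.0 and 39.5 RPKM in wild-type AdGFP cells. AdDlx3 was thus higher in batch A and lower in batch B for both genotypes. Uqcrb, which helps bind ubiquinone in complex III, went the other way, with 134 and 107 RPKM in knockout AdDlx3 cells, 130.3 and 118 RPKM in wild-type AdDlx3 cells, 92.3 and 119.8 RPKM in knockout AdGFP cells and 63.5 and 96.7 RPKM in wild-type AdGFP cells, but the difference of 0.72 ± 0.22 missed the threshold (limma adjusted p = 0.0556). Cox6b2 and Cox7a1 had differences of -0.25 ± 0.46 and -0.48 ± 0.38, neither called.

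**Figure D4:**
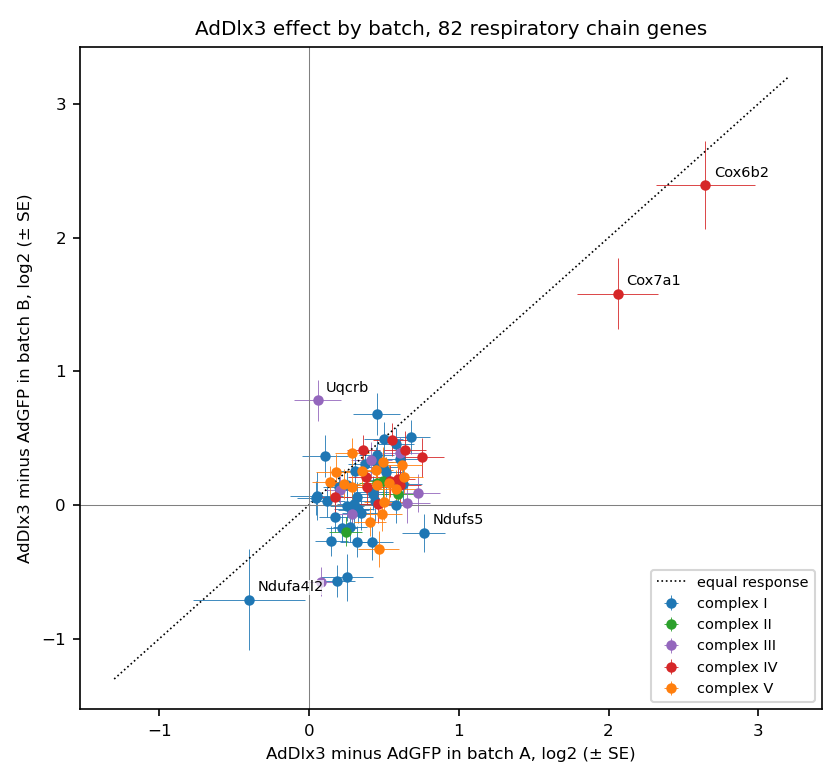
AdDlx3 minus AdGFP for each of the 82 genes in batch B (vertical) against batch A (horizontal), as log2 changes with their SE from the fit with batch; the dotted line marks equal response. Most points lie right of 0 and below the line, with medians of 0.14 in batch B and 0.42 in batch A, while Cox6b2 and Cox7a1 are high in both; after median-of-ratios scaling 18 genes fell in batch B.

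Other measures moved with the batch. The keratinocyte marker sum was lowest in the AdDlx3 libraries of batch B, as given above, and the RPKM sum of a library was 350898 to 383906 in batch B and 396359 to 418974 in batch A. Of 6 fibroblast markers measured, 5 were lower and 1 higher in batch B over both viruses, against 27.2% and 17.1% of all genes tested. Chain genes are short: the median exonic length was 1550 bases over the 77 with a length, against 4363 bases over tested genes, and 59 of the 77 lay in the shortest of 4 equal length classes. Genes of that class, whatever their function, had a median of -0.28 in batch B against batch A under AdDlx3, and genes of the longest class 0.08. The AdDlx3 effect in the shortest class had a median of 0.12 in batch B and 0.30 in batch A, and in the longest class 0.30 and 0.20. The part of transcript length and of the marker sum in the chain genes' batch difference was not tested.

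Genes that serve the chain without matching the symbol rule were counted from lists of known function. Over both genotypes AdDlx3 raised 2 of 9 electron carriers and other subunits, against 23.4% of all genes, and lowered 0. Etfdh, which passes electrons from fatty acid and amino acid oxidation to ubiquinone, rose by 2.12 ± 0.15 (limma adjusted p = 0.00023), and its electron donor Etfa by 0.84 ± 0.13 (limma adjusted p = 0.00378). Among assembly factors 1 of 14 for complex I rose (Ndufaf7, 0.48 ± 0.12, limma adjusted p = 0.0221). For complexes II to V it was 4 of 35, led by the copper chaperone Sco1 (1.05 ± 0.14) and by Sdhaf2 (0.58 ± 0.12), which helps attach flavin to Sdha. Their limma adjusted p were 0.00197 and 0.00983.

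Upstream, 5 of 18 genes of the tricarboxylic acid cycle and pyruvate dehydrogenase rose and 0 fell, against 23.4% and 5.74% of all genes tested. The same all-gene shares stand beside the counts of the lists that follow in this fit. The 5 were led by Pdhb (0.60 ± 0.11), Cs (citrate synthase, 0.65 ± 0.12) and Pdhx (0.49 ± 0.11), with limma adjusted p of 0.00555, 0.00698 and 0.0142. In coenzyme Q synthesis 2 of 12 rose (Coq10a, 0.75 ± 0.19, and Coq5, 0.33 ± 0.10). Of 78 mitochondrial ribosomal proteins 9 rose and 0 fell, Mrps33 by 0.72 ± 0.13, and of 25 import genes 2 rose, Timm8b by 0.84 ± 0.11 and Hspe1 by 0.80 ± 0.20. Among 22 regulators of mitochondrial biogenesis Ppargc1a, a coactivator known for inducing mitochondrial genes, had a change of 1.07 ± 0.33 (limma adjusted p = 0.0416), and Myc fell by 0.89 ± 0.15 on the log2 scale (limma adjusted p = 0.00423). Ppargc1a had 0.220 and 1.28 RPKM in knockout AdDlx3 cells, 0.331 and 1.14 RPKM in wild-type AdDlx3 cells, 0.0222 and 0.0640 RPKM in knockout AdGFP cells and 0.0253 and 0.0741 RPKM in wild-type AdGFP cells. It passed the filter through the 2 AdDlx3 libraries of batch A alone, lay below the added constant of 0.5 in the other 6, and was no longer called after median-of-ratios scaling. Of 12 antioxidant and uncoupling genes 0 changed past the limma threshold, and of 78 cytoplasmic ribosomal proteins, another group of short abundant transcripts, 3 rose. After median-of-ratios scaling, which left 9.68% of all genes up and 12.1% down, the counts were 2 up and 0 down for the carriers, 1 up and 4 down for assembly of complexes II to V, 0 up and 1 down for the tricarboxylic acid cycle list and 1 up and 5 down for mitochondrial ribosomal proteins. They were 1 up and 3 down for import, 0 up and 2 down for the regulators, 0 up and 1 down for the antioxidant and uncoupling list, and 0 either way for complex I assembly, coenzyme Q synthesis and cytoplasmic ribosomal proteins. With the batch as a block, where 38.0% of all genes rose and 10.9% fell, 10 of 18 rose in the tricarboxylic acid cycle list, 20 of 78 among mitochondrial and 12 of 78 among cytoplasmic ribosomal proteins, 10 of 35 and 4 of 14 among assembly factors of complexes II to V and of complex I, and 4 of 12 in coenzyme Q synthesis, with 0 lowered in each. For the regulators it was 4 up and 2 down, and 3 carriers, 3 import genes and 1 antioxidant or uncoupling gene rose. The 13 chain subunits encoded by mitochondrial DNA were not analysed here.

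**Figure D5:**
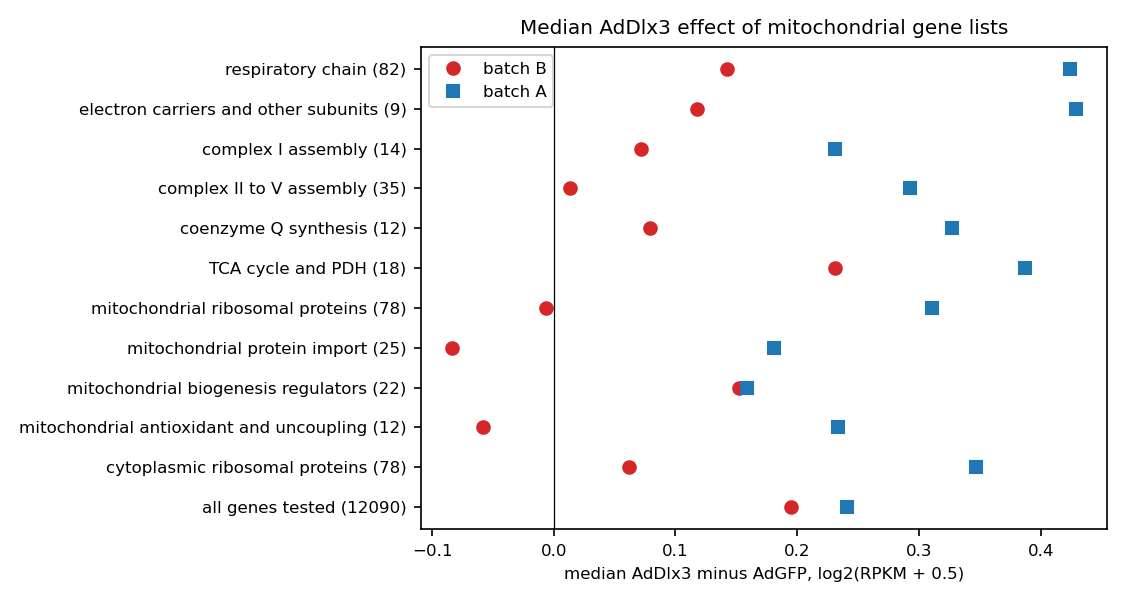
Median AdDlx3 minus AdGFP change (log2(RPKM + 0.5)) of the 82 respiratory chain genes, of related gene lists and of all genes tested, in batch B (circles) and batch A (squares), with the number of genes measured in brackets. The chain genes stand at 0.14 and 0.42, cytoplasmic ribosomal proteins at 0.06 and 0.35 and all genes tested at 0.20 and 0.24; median-of-ratios scaling moves all genes together and takes the chain genes' median over both batches to -0.01.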

How the data were processed

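Polyadenylated RNA was sequenced from 8 libraries (made with NEBNext Ultra II, per the labels' protocols). The submitters' processing notes name bcl2fastq 2.20.0.422, Partek, TopHat2 2.1.1 and the build mm10 without roles; the annotation, counting method and strand setting were not given there or in the labels. The authors deposited 26202 genes as RPKM, the values tested here, and a sample sheet with each library's alignment count and batch. Their second deposited table holds log2 group means, p-values, q-values, and for each contrast a ratio and a signed fold change (a score, since it is minus the inverse ratio for a decrease). The number of sample columns left unused was 0.

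Groups came from the sample labels. A constant of 0.5 was added to RPKM before taking log2, and 12090 genes at 1 RPKM or more in at least 2 libraries were tested. limma 3.58.1 (R 4.3.3, intensity trend) used all 8 libraries. A model of the 4 groups (4 residual and 2.88 prior degrees of freedom) gave effects within a genotype or virus and the interaction. An additive model (5 and 3.04) gave effects over both. Genes were called at a Benjamini-Hochberg adjusted p below 0.05, taken over all those tested. Changes on this scale understate those of low genes. The scripts were tested on simulated data, with noise drawn independently for each library and planted changes larger than those of most chain genes. Deviations shared by libraries of the same batch were not simulated, so the calls of small changes made here are not covered by that run. Nothing in the labels says that replicates are separate pups or cultures, so the p-values rest on a spread that may be technical. Libraries of one number share a batch in the sample sheet, and their deviations from the group means correlated at 0.351 to 0.876 over the 6 pairs of groups, so the number served as a block in an alternative fit. A fit of virus, batch, their product and genotype, chosen after seeing the data, gave effects within batches. Depth is known only as alignment counts, so RPKM carry no counting interval.

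The chain genes and related lists were chosen with earlier results of these data known. Genes named are Dlx3; all of complex II; in each other complex the highest, up to 4 called with the largest change each way and the 2 smallest changes; members called elsewhere; isoform pairs; and up to 3 called genes of each related list. Uqcrb and genes called only in the batch fit were named after their values were seen. A gene that the rule also names is not reported here. Coordinates come from GENCODE M21 and promoters from RefSeq on GRCm38.p6, which has the coordinates of mm10. Melanocyte, immune and endothelial markers were also counted: over both genotypes AdDlx3 raised 0 of 8, 1 of 3 and 1 of 2 measured and lowered 0, 0 and 1.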

Additional observations from a re-analysis of the deposited data

Results flagged for a closer look

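Among 64 groups of 4 libraries examined for a value far from the rest, 1 stood out, and chance alone marks about 1 in 20 groups. Atp5g3, one of the 3 genes for the membrane-ring subunit of ATP synthase, had 250.9 RPKM in the batch A library of knockout AdGFP cells, against 259.6 to 261 RPKM in the other AdGFP libraries. The gap is small in size.

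For 7 of the 82 chain genes the AdDlx3 effect was smaller in batch B than in batch A in limma's test of that difference. Of all genes tested 8.56% were called in that direction, so the count is about that of genes in general. The differences were Ndufs5 by -0.97, Atp5g2 by -0.79, Ndufb4 by -0.75, Ndufs7 by -0.70, Uqcrc1 by -0.66, Ndufa8 by -0.60 and Atp5g3 by -0.53 (log2, batch B minus batch A). In Ndufs5, Atp5g2, Ndufb4, Ndufs7, Ndufa8 and Atp5g3 both genotypes gave a change below 0 in batch B and above 0 in batch A. The genes were picked on these same values, so that is no separate evidence.

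Ndufs1, a core iron-sulfur subunit of complex I, changed by -0.13 in batch B and -0.08 in batch A in knockout cells, and by 0.23 and 0.18 in wild-type cells. The difference between the genotypes was -0.31 ± 0.26 (limma adjusted p = 1.0). The pseudogene Ndufs5-ps had changes of 0.14 and 0.13 in knockout cells and -0.0027 and -0.03 in wild-type cells, a difference of 0.15 ± 0.46 (limma adjusted p = 1.0), so neither opposite direction passed its test.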

How the results depend on the processing

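The count of 11 chain genes raised by AdDlx3 over both genotypes became 2 with median-of-ratios scaling, 24 with equal RPKM sums, 34 with the batch as a replicate block and 3 with block plus median-of-ratios scaling, which also gave 3 lowered in place of 0. The median change of 0.28 over all 82 became -0.012 under median-of-ratios scaling and -0.012 when the block was added. In wild-type cells the 1 call became 0 without a filter, with a mean of at least 5 RPKM or with median-of-ratios scaling, 4 with the block and 2 with block and scaling. In knockout cells it became 0 without a filter, 2 with equal sums or without the trend, 6 with the block and 2 with block and scaling. Median-of-ratios scaling gave 6 in place of 55 raised in batch A and 3 in place of 15 in batch B. For the 82 chain genes no genotype or interaction call was made under any alternative tried, with or without the block. The cause of these differences was not tested. Leaving out 1 library, which leaves 1 group with a lone sample assumed to vary like the others, gave 3 to 14 raised over both genotypes, 0 to 1 in wild-type and in knockout cells, 13 to 57 in batch A and 4 to 21 in batch B. It gave 25 to 60 lower in batch B over both viruses, 11 to 68 under AdDlx3, 1 to 10 under AdGFP, and 0 to 17 with a smaller effect in batch B. Over both genotypes, 560 alternative values of named genes were compared, of which 75 lost their call and 13 gained one. Only the 11 called chain genes and Dlx3 had a call to lose, so the 560 are not the base for the 75. There were 2 libraries a group and no read counts. Ndufa4l2 and Cox7a1, among the lowest chain genes, had the largest errors of the 82 in the fit over both genotypes. That fit has no batch term, and Ndufa4l2 differed most between the batches. With the batch as a block the errors of Ndufa4l2 and Cox7a1 were smaller, at 0.29 and 0.22.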
